A study of Rattus norvegicus with 8 samples.

Results

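The interferon response genes described here are 31 rat genes whose transcripts rise when cells are exposed to interferon. These genes were picked by name as a functional group, not by a rule on their values, but with earlier results of these data known. They were read on Agilent 1-colour arrays hybridised with vessel RNA of male rats, with 4 control and 4 hypertensive samples and an array for each. The labels number the samples as replicates without stating that each came from a separate animal. The p-values therefore set the group difference against the spread between these samples, which may be partly technical. The control rats were Wistar-Kyoto, a normotensive laboratory strain. By its title the series contrasts Wistar-Kyoto with hypertensive rats, whereas the strain entry of the hypertensive rats, labelled as the disease model, also reads Wistar-Kyoto, so the strain of that group is not settled. Neither group is labelled with a treatment or an altered gene, and the age of the rats, the vessel taken and the way hypertension arose are not given in the sources used here. The question was how the vessels of hypertensive rats differ from those of control rats. Of the 31 genes, 30 were matched to at least 1 of 38 probes, and 29 entered the comparison, among 24552 tests in all, because their signal stood well above background on 3 or more of a group's 4 arrays. Ifi44l had no matched probe, and the only probe of Oasl was well above background on 1 of 8 arrays.

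Interferons are cytokines that cells release when they sense foreign or misplaced nucleic acid. Type I interferons bind a receptor that activates the kinases JAK1 and TYK2, and transcription factors that include STAT2 and IRF9 then enter the nucleus as the complex ISGF3. This complex binds the interferon-stimulated response element in the promoters of many antiviral genes, while interferon gamma acts mainly at the gamma-activated sequence. In the vessel wall, endothelial cells, smooth muscle cells, fibroblasts and resident leukocytes can all express these genes at a resting level.

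The promoter sequences show what the genes share beyond their name. Of the 31 genes, 22 had a promoter window in the RefSeq table (build GRCr8), which runs from 250 bases before the transcript start to 50 bases after it. The response element core, GAAA followed by any 2 bases and GAAA, searched on both strands, was present in 14 of these 22 windows (63.6%), against 3.92% of all 33469 windows of the table. Among the other interferon pathway genes it was present in 41 of 117 windows (35.0%). The gamma-activated sequence TTCNNNGAA, a palindrome, was present in 8 of the 22 windows (36.4%), against 8.87% of all windows. The whole window of Eif2ak2 (chr6:21940904-21941203, plus strand) is shown because Eif2ak2 was the single member past the test threshold, with the element core in capitals, starting 16 bases before the transcript start.
Eif2ak2: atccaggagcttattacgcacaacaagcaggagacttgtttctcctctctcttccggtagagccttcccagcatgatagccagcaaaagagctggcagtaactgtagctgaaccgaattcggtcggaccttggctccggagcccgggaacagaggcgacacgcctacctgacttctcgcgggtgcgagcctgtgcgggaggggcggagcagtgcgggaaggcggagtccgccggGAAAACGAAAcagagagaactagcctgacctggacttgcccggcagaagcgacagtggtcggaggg

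Shorter stretches around the core, on the strand of each gene, are shown for members whose unadjusted p was under 0.05 (Ifi27, Oas1a and Ifih1) and for members that did not differ between the groups by that measure (Oas1b, Ifit3 and Rsad2). These were chosen after their values were seen. Capitals mark the core, or its reverse complement in Ifit3 and Rsad2, with 10 bases on each side. Ifi27 holds 2 separate cores, which start 169 and 84 bases before the transcript start, and only the nearer is shown. The sites lie at chr6:128355218-128355247 (plus, Ifi27), chr12:41330415-41330450 (plus, Oas1a), chr3:67684008-67684037 (minus, Ifih1), chr12:41395886-41395921 (minus, Oas1b), chr1:241527272-241527301 (plus, Ifit3) and chr6:48788248-48788277 (minus, Rsad2).
Ifi27: gagagctgggGAAATGGAAActtacctcat
Oas1a: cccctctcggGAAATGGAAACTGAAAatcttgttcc
Ifih1: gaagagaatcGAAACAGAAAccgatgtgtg
Oas1b: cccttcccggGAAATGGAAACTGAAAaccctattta
Ifit3: tttaagtctgTTTCAGTTTCtagtttccac
Rsad2: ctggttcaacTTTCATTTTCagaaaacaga
In Oas1a and Oas1b 2 matches overlap, and the capitals are the same in both genes. A match is a description of the letters and not evidence of binding.

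All 8 arrays lay on 1 slide and were scanned together, with the controls in 1 row of the slide and the hypertensive rats in the other, so slide row and group cannot be told apart. The signal at the 75th percentile ran from 405 to 503 among controls and from 357 to 478 among hypertensive rats, and precision is limited by the number of arrays. Levels are given as log2 signal relative to that percentile. Levels of different genes are not compared, since probes differ in brightness. All 10 vessel wall markers tested (among them Myh11 and Acta2 of smooth muscle, Pecam1 and Cdh5 of endothelium and Dcn of fibroblasts) were well above background on all 8 arrays, and none passed the threshold. None of 8 mast cell markers passed either, but all 8 were higher in hypertensive rats. Of these 8, 7 had an unadjusted limma p under 0.05, beside 20.3% of all tests. Their summed linear level was 4.70 to 7.75 in controls and 8.06 to 14.9 in hypertensive rats. The part of mast cells in the members' values was not tested. Hypertensive replicate 4 stood apart in fat cell markers, with a summed linear level of 6 white adipocyte genes of 26.8 against 4.35 to 6.06 on the other hypertensive arrays and 3.89 to 8.07 on the control arrays. Calls of members gained or lost without this array are stated, and other changes are given with all 8 arrays unless said otherwise.

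For most interferon response genes the difference between hypertensive and control vessels was within the spread between samples. Of the 29 genes tested, 1 fell, 0 rose and 28 did not pass the threshold (limma, Benjamini-Hochberg adjusted p under 0.05 over all 24552 tests). That is 3.45% of the members, beside 4.53% of all tests in either direction, 1.91% lower and 2.61% higher. With an unadjusted p under 0.05 there were 7 members (24.1%), beside 20.3% of all tests. The 4 control and 4 hypertensive values did not overlap for 5 members (17.2%), beside 13.6% of all tests. The median log2 change, hypertensive minus control, was -0.09 over the 29 members and 0.04 over all tests, and it was 0.01 without control replicate 2 and 0.02 without hypertensive replicate 4. The median size of the change was 0.13 over the members and 0.15 over all tests. For 26 of 29 members the 95% interval of the change lay within 1 log2 unit of 0, and for 15 it lay within 0.5 log2 units. Because a vessel holds many cell types, fewer cells of a type and less RNA per cell cannot be told apart in any of these values. The number of members past the threshold was 5 with normexp background correction and 2 or 3 under 4 other settings described in the closing section, and it was 2 without hypertensive replicate 1 and without hypertensive replicate 4.

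**Figure D1:**
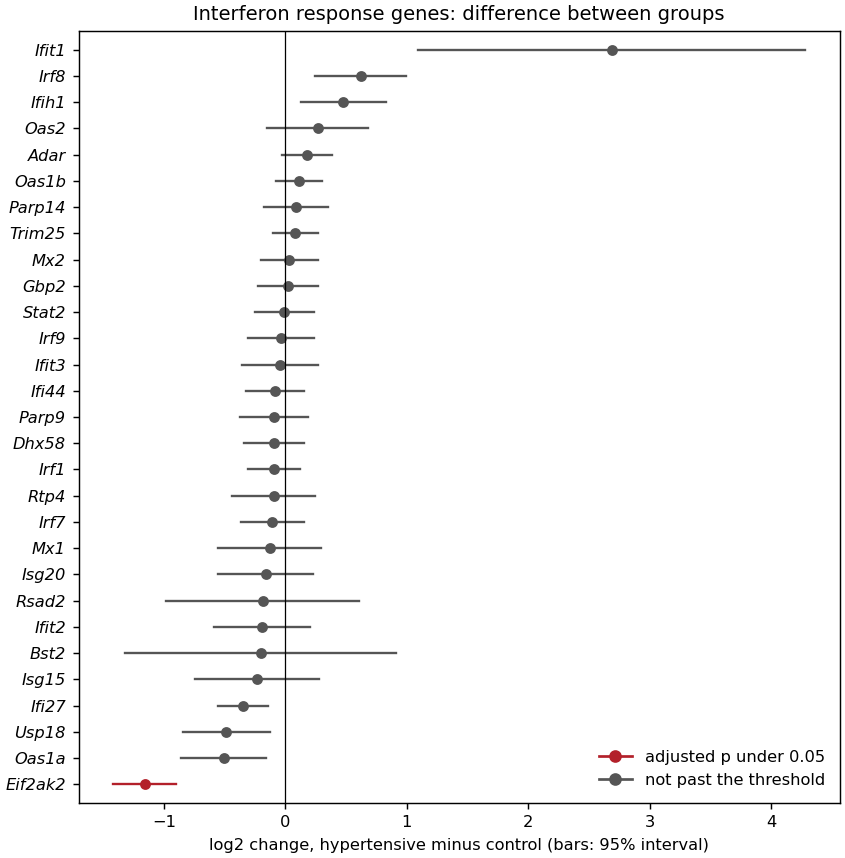
Log2 change between groups (hypertensive minus control, horizontal axis) for the 29 interferon response genes tested, as points with the 95% interval of the limma fit over 4 arrays per group. Eif2ak2 at -1.16 is the single gene past an adjusted p of 0.05, 22 intervals span 0, and Ifit1, which has the widest interval of the 29, was well above background on no control array, so that its point is not a measured size.

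The member that fell was Eif2ak2, which encodes PKR, a kinase that is activated by double-stranded RNA and halts translation by phosphorylating eIF2 alpha. Its brighter probe (A_42_P467037) read 0.37, 0.72, 0.43 and 0.52 in the controls, by replicate number, and -0.42, -0.76, -0.64 and -0.78 in the hypertensive rats. Every hypertensive value lay below every control value. The change was -1.16 ± 0.11 (SE, n = 4 per group), or 2.23-fold lower (limma, adjusted p = 0.00074), with a 95% interval of -1.42 to -0.90. It stayed past the threshold in each of 20 alternative analyses, including those without any 1 array (adjusted p from 0.00091 to 0.0041).

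The second probe of the same transcript record (A_44_P1152312) did not show this difference. It read -0.97, -0.98, -1.30 and -1.11 in controls and -0.99, -1.01, -1.09 and -1.44 in hypertensive rats. The groups overlapped, and the change was -0.04 ± 0.13 (limma over all 27822 kept probes, adjusted p = 0.883). The brighter minus the dimmer probe on the same array was 1.60 ± 0.17 (SD, n = 4) in controls and 0.48 ± 0.18 in hypertensive rats. This difference of -1.12 gave a two-sided exact permutation p of 0.0286, the smallest that 4 against 4 arrays allow. The gene was picked because its brighter probe separated the groups, so this p is a description and not an independent test. With the mean of both probes the change of Eif2ak2 was -0.60 (adjusted p = 0.017). Where on the transcript each probe lies was not analysed here.

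Adar encodes the enzyme that edits adenosine to inosine in double-stranded RNA and so keeps the cell's own RNA from activating PKR and MDA5. Its 3 kept probes gave log2 changes of 0.18 ± 0.09, -0.04 ± 0.21 and -0.13 ± 0.08, and none passed. The probes differed in sign, and their mean differed by 0.00072.

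Ifit1 was above background in hypertensive vessels alone and did not pass the threshold. IFIT proteins bind viral or otherwise foreign RNA ends and block their translation. Ifit1 read -7.71, -7.17, -7.27 and -7.27 in controls and -7.06, -4.62, -3.57 and -3.45 in hypertensive rats. It was well above background on none of the 4 control arrays and on 3 of 4 hypertensive arrays, all but replicate 1, whose value lay next to the controls. On the processed signal it was at least 2.29-fold higher in hypertensive vessels (limma, adjusted p = 0.070), where the bound sets each control array at the lowest signal of any probe well above background on it. The hypertensive mean in this bound includes replicate 1, which was not well above background. The adjusted p was under 0.05 in 4 of 19 alternatives: with normexp correction (0.0077), array weights (0.024) and the intensity trend (0.042), and without hypertensive replicate 1 (0.00078). With normexp correction the log2 change was 0.65, a smaller difference than the bound, so the bound holds for the processed signal only. No exact size is given, because the controls have only a bound and the gene entered the tests through the hypertensive arrays.

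The other IFIT genes lie beside Ifit1 on chromosome 1, with Ifit2 and Ifit3 adjacent and 1 protein-coding gene between Ifit3 and Ifit1 in the GRCr8 annotation. Ifit2 read 1.22, 1.18, 1.39 and 0.81 in controls and 1.41, 0.80, 0.87 and 0.75 in hypertensive rats, a change of -0.19 ± 0.17. Ifit3 read -1.48, -1.31, -1.53 and -1.86 against -1.75, -1.34, -1.57 and -1.70, a change of -0.04 ± 0.14. Neither passed, and the groups overlapped in both.

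**Figure D2:**
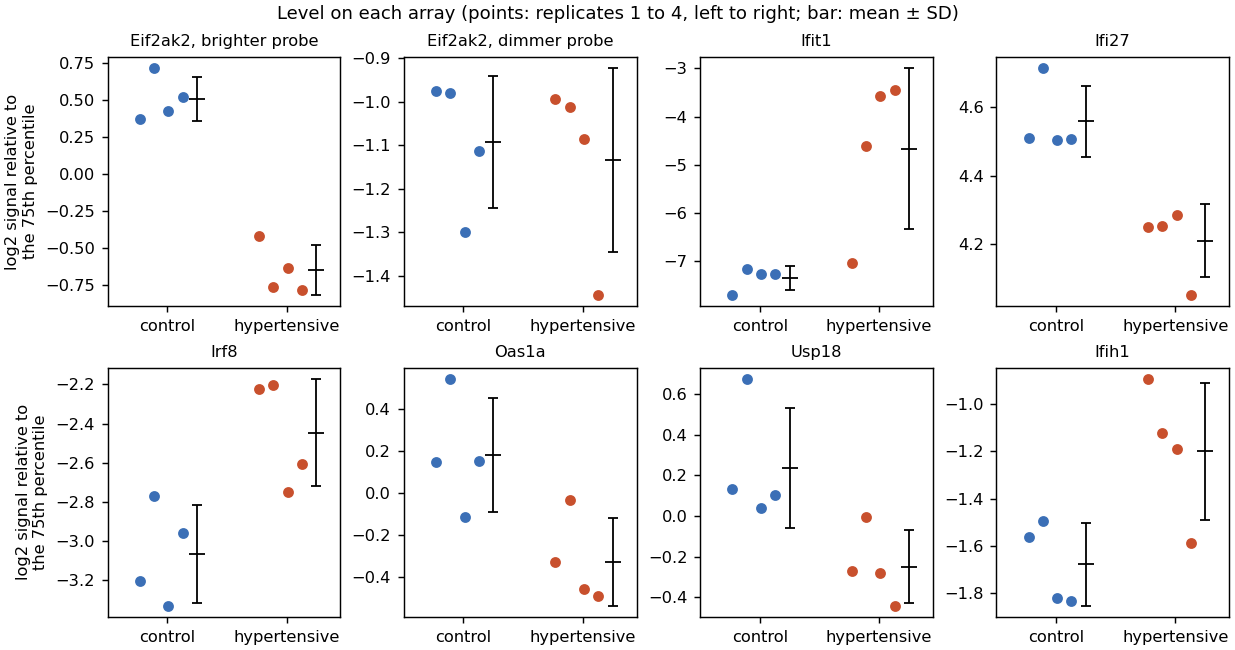
Level on each array (log2 signal relative to the array's 75th percentile, vertical axis, a scale of its own in each panel) in control and hypertensive vessels, with mean ± SD of 4 arrays, for both kept probes of Eif2ak2 and for 6 further genes with an unadjusted p under 0.05. The groups are fully separated in the panels of the brighter Eif2ak2 probe, Ifit1, Ifi27, Irf8 and Usp18, and they overlap in the other panels.

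None of the 5 transcription factors among the members passed the threshold, and Irf8 had the smallest p of them. Irf8, a factor of macrophage and dendritic cell development that also answers to interferon gamma, read -3.20, -2.77, -3.33 and -2.96 in controls and -2.23, -2.20, -2.75 and -2.60 in hypertensive rats. The groups did not overlap, and the change was 0.62 ± 0.17 (limma, adjusted p = 0.076), past the threshold only with normexp among 20 alternatives (0.42, adjusted p = 0.028). Of 4 dendritic cell markers tested, 1 rose, Clec9a, a receptor of cross-presenting dendritic cells (0.97 ± 0.22, limma, adjusted p = 0.041), a call kept in 2 of the 8 analyses without 1 array (control replicate 2 or hypertensive replicate 3). The other dendritic cell markers were at -0.21 (Zbtb46), -0.02 (Tcf4) and 0.06 (Ccr7), and the summed linear level of the 4, which Tcf4 dominates, was 19.8 to 21.3 in controls and 18.9 to 21.2 in hypertensive rats. The mean of the 4 genes' log2 deviations from their own means weights them equally and includes Clec9a, which had the largest change. It was -0.24 to 0.018 in controls and 0.025 to 0.27 in hypertensive rats, ranges that parted narrowly. The mean was not computed without Clec9a, so it is not a sign of a rise apart from that gene. Of 11 macrophage and monocyte markers, 1 fell, the mannose receptor gene Mrc1 (-0.51 ± 0.12, adjusted p = 0.0496), and none rose. The call of Mrc1 was kept in 1 of those 8 analyses, that without hypertensive replicate 4. Of the 11, 9 had a negative change, and the median over the 11 was -0.22. An unadjusted p under 0.05 was reached by 5 of the 11, beside 20.3% of all tests, and 1 of these 5, Lyz2, was higher. That list's summed level, which the bright lysozyme gene Lyz2 (change 0.53, adjusted p = 0.080) dominates, was 140.4 to 176.8 in controls and 158.7 to 222.9 in hypertensive rats. Its mean log2 deviation ran the other way, at 0.04 to 0.22 in controls and -0.28 to 0.17 in hypertensive rats. The part of these cells in the value of Irf8 was not tested.

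Stat2 and Irf9, which encode subunits of ISGF3, differed by -0.01 ± 0.11 and -0.04 ± 0.12, with 95% intervals of -0.25 to 0.23 and -0.31 to 0.24. A second, dimmer Irf9 probe gave -0.26 ± 0.10 with no overlap of the groups (limma over all kept probes, adjusted p = 0.178). Irf7, which amplifies type I interferon production, read 2.31, 2.73, 2.23 and 2.41 in controls and 2.30, 2.40, 2.26 and 2.27 in hypertensive rats, a change of -0.11 ± 0.11. Irf1, a factor of the interferon gamma response, differed by -0.09 ± 0.10. None of these passed, and each interval of the 4 spanned 0.

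Among the cytosolic RNA sensors, Ifih1 encodes MDA5, which binds long double-stranded RNA. It read -1.56, -1.49, -1.82 and -1.83 in controls and -0.89, -1.12, -1.19 and -1.59 in hypertensive rats. Only hypertensive replicate 4 fell within the control range, and the change was 0.48 ± 0.15 (limma, adjusted p = 0.126). Without that array it was 0.61 (adjusted p = 0.032). Dhx58, which encodes the regulatory helicase LGP2, differed by -0.09 ± 0.11. Trim25, a ubiquitin ligase that assists the sensor RIG-I, differed by 0.08 ± 0.08 and 0.12 ± 0.09 on its 2 probes.

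The oligoadenylate synthetases make the short messenger that activates RNase L. Oas1a read 0.15, 0.54, -0.12 and 0.15 in controls and -0.33, -0.03, -0.46 and -0.49 in hypertensive rats. Only control replicate 3 fell below hypertensive replicate 2, and the change was -0.51 ± 0.16 (limma, adjusted p = 0.109). A second Oas1a probe gave -0.50 ± 0.17 (adjusted p = 0.156). Oas1b, separated from Oas1a by 2 protein-coding genes on chromosome 12, differed by 0.11 ± 0.08, and Oas2 by 0.26 ± 0.18. Oas1k, a further paralog from the wider pathway list, differed by -0.56 ± 0.15 with no overlap of the groups (adjusted p = 0.068). Oas1i, from the same list, differed by -0.49 ± 0.17 (limma, adjusted p = 0.143), and its groups overlapped. None of these genes passed the threshold. The OAS1 genes are close paralogs whose transcripts could bind each other's probes, so a difference cannot be assigned to 1 family member.

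ISG15 is a ubiquitin-like protein, and Usp18 encodes the protease that removes it and also blocks signalling at the interferon receptor. Usp18 read 0.13, 0.67, 0.04 and 0.10 in controls and -0.27, -0.01, -0.28 and -0.44 in hypertensive rats. The groups did not overlap, although control replicate 3 and hypertensive replicate 2 were close, and the change was -0.49 ± 0.16 (limma, adjusted p = 0.125). It passed the threshold only with normexp among 20 alternatives (-0.46, adjusted p = 0.039). Isg15 read 2.52, 3.11, 2.38 and 2.50 against 2.65, 2.42, 2.69 and 1.82, so that the highest value was in a control and the lowest in a hypertensive sample. Its change was -0.23 ± 0.23, with a 95% interval of -0.74 to 0.28, and -0.04 without hypertensive replicate 4.

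Ifi27, which encodes a small mitochondrial and nuclear-envelope protein, read 4.51, 4.71, 4.50 and 4.51 in controls and 4.25, 4.25, 4.29 and 4.05 in hypertensive rats. All hypertensive values lay below all control values, and the change was -0.35 ± 0.09, or 1.27-fold lower (limma, adjusted p = 0.067). It passed the threshold under 4 of 20 alternatives (normexp, quantile normalization, median centring and the intensity trend), with changes from -0.44 to -0.34 among these. Ifi44 differed by -0.09 ± 0.10 and 0.17 ± 0.11 on its 2 probes, with no call for either.

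The remaining effectors were not past the threshold. The dynamin-like GTPases Mx1 and Mx2 trap viral nucleocapsids. Mx1 read 2.97, 3.32, 2.58 and 2.82 in controls and 2.97, 2.78, 3.03 and 2.40 in hypertensive rats (change -0.13 ± 0.19). With 1 array left out, the change of Mx1 ran from -0.24 to 0.0054. Mx2 differed by 0.03 ± 0.10. Rsad2, which encodes viperin, an enzyme that makes a chain-terminating nucleotide, read 0.14, 0.32, -0.67 and 0.16 against 0.29, 0.21, -0.09 and -1.22 (change -0.19 ± 0.35). With 1 array left out, the change of Rsad2 ran from -0.41 to 0.15. Its lowest value in each group came from 1 array, control replicate 3 and hypertensive replicate 4. On no array did a second Rsad2 probe stand well above background.

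Bst2 encodes tetherin, which holds budding virus at the cell surface. It read 2.23, 3.98, 2.82 and 2.30 in controls and 3.70, 2.93, 1.94 and 1.94 in hypertensive rats, so that controls spanned 1.75 and hypertensive rats 1.77 log2 units. Control replicate 2 and hypertensive replicate 1 were the high arrays. Its pooled SD within groups was 0.83, and 0.668% of all tests had a larger one. The change of -0.20 ± 0.49 had a 95% interval of -1.32 to 0.91, wide enough to hold a change beyond 1 log2 unit in the lower direction. With 1 array left out, the change of Bst2 ran from -0.56 to 0.18.

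Gbp2, a guanylate-binding protein induced mainly by interferon gamma, differed by 0.02 ± 0.11, the chaperone gene Rtp4 by -0.10 ± 0.15 and the exonuclease gene Isg20 by -0.16 ± 0.17. Parp9 and Parp14 encode ADP-ribosyltransferase family proteins and lie near each other on chromosome 11. They differed by -0.09 ± 0.12 and 0.09 ± 0.12. Over the 22 members with an unadjusted p of 0.05 or more, the changes ran from -0.23 (Isg15) to 0.26 (Oas2).

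Within each group the members varied together from sample to sample. Control replicate 2 gave the highest control value for 24 of 29 members, where it did so for 28.2% of all tests, and the lowest for none. Hypertensive replicate 4 gave the lowest hypertensive value for 21 of 29 members, where it did so for 33.0% of all tests. Hypertensive replicate 1 was the highest of its group for 14 members, and for 27.8% of all tests. The mean of the members relative to each gene's own mean over 8 arrays was -0.03, 0.25, -0.14 and -0.10 in the controls, by replicate number, and 0.08, 0.09, 0.02 and -0.16 in the hypertensive rats. The groups overlapped, with the highest value in control replicate 2 and the lowest in hypertensive replicate 4.

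As a description over 8 arrays, with each group's mean removed, the mean Pearson correlation between pairs of the 29 members was 0.45, and 0.0062 between pairs of all tests. It was 0.19 in the other type I interferon-induced genes and 0.28 in the interferon gamma and class I presentation genes. It was 0.22 in the receptor and JAK-STAT genes, 0.059 in the sensors and adaptors and 0.072 in the negative regulators. Some lists of other kinds were higher than the members. These were macrophage and monocyte (0.56), lymphocyte and NK cell (0.55), mast cell (0.55) and white adipocyte markers (0.83) and immediate early genes (0.73). Vessel wall markers (-0.088) and dendritic cell markers (-0.064) were lower. These arrays share 1 slide and 1 scaling step. Without control replicate 2 the members' value was 0.31, without hypertensive replicate 4 it was 0.40, and without both it was 0.11, so that it rests largely on these 2 arrays. The correlation of a member with the mean of the other members was above 0.5 for 24 of 29. It was highest for Usp18 (0.93), Parp14 (0.93) and Ifi27 (0.92), and below 0 for Irf1 (-0.20) and Ifit1 (-0.52), which was well above background on no control array.

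**Figure D3:**
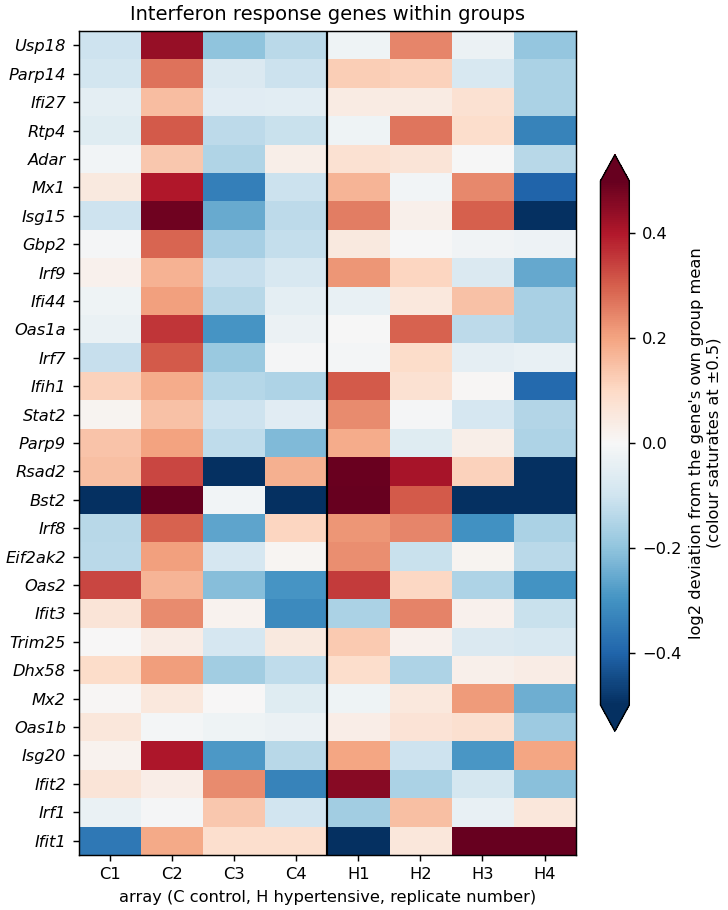
Log2 deviation of each interferon response gene from its own group mean (colour, saturating at ±0.5), for 4 control (C1 to C4) and 4 hypertensive (H1 to H4) arrays, with genes ordered by their correlation with the mean of the other members. C2 is highest of the controls for 24 of 29 genes and H4 lowest of the hypertensive arrays for 21.

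The same control array was high in related lists. Control replicate 2 was the highest control for 28 of 36 other type I interferon-induced genes and 18 of 22 interferon gamma and class I presentation genes. It was also highest for 7 of 11 macrophage and monocyte markers and 6 of 11 lymphocyte and NK cell markers, and for 3 of 10 vessel wall markers. Its mean log2 deviation of macrophage and monocyte markers was 0.22, the highest of the 8 arrays. For hypertensive replicate 4 the lists parted. It was the lowest of its group for 12 of 36 other type I genes, near its share of all tests (33.0%). The count was 5 of 22 for the interferon gamma and class I presentation genes. It was the lowest for none of the macrophage and monocyte, lymphocyte and NK cell, white adipocyte or mast cell markers. Its mean log2 deviation of macrophage and monocyte markers, 0.17, was the highest of its group, and that of lymphocyte and NK cell markers, 0.60, the highest of the 8 arrays. The part of these cells in the sample-to-sample variation of the interferon genes was not tested.

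Genes upstream and alongside the members were read from 6 lists of interferon pathway genes with 130 genes, of which 90 were tested. Of these 90, 2 rose, 3 fell and 85 did not pass, where 2.61% of all tests rose and 1.91% fell. The count of calls was thus near the share of all tests (4.53%). The median change was -0.03. The groups did not overlap for 13 of 90, beside 13.6% of all tests. Of the interferon genes themselves only Ifna4 and Ifnk could be tested among 10 listed, with changes of 0.04 ± 0.13 and 0.14 ± 0.30. None of 9 receptor and JAK-STAT genes passed, among them Il10rb, which encodes a receptor chain shared by type III interferons and interleukin-10 (0.15 ± 0.09, limma, adjusted p = 0.371).

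The sensor Tlr3, an endosomal receptor of double-stranded RNA, rose and was the only one of 11 sensor and adaptor genes tested to pass. It read -0.15, -0.04, -0.24 and -0.16 in controls and 1.07, 1.09, 1.12 and 1.22 in hypertensive rats. The groups lay far apart relative to their spread, and the change was 1.27 ± 0.08, or 2.42-fold (limma, adjusted p = 5.1e-05). The gene was read by 1 probe, and it passed in each of 20 alternatives, with changes from 1.09 to 1.31. The next smallest p in that list was that of Tlr7, an endosomal receptor of single-stranded RNA (-0.48 ± 0.25, adjusted p = 0.319), which was well above background on 1 of 4 hypertensive arrays.

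Of 36 other type I interferon-induced genes, 1 fell and 1 rose. Phf11, which encodes a PHD finger protein, read -0.32, 0.06, -0.31 and -0.16 in controls and -1.63, -1.24, -1.61 and -1.19 in hypertensive rats, a change of -1.24 ± 0.14 (limma, adjusted p = 0.0015). Its second probe gave -1.31 ± 0.14 (adjusted p = 0.0013), so that both probes showed the fall, and it passed in each of 20 alternatives. The Schlafen gene Slfn9, listed under the older symbol Slfn13, rose by 0.85 ± 0.19 (adjusted p = 0.040), a call kept in 11 of 20 alternatives and lost without any 1 of control replicates 2, 3 and 4 and hypertensive replicates 1 and 3.

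Of 10 negative regulators, Socs3 fell. SOCS3 is a feedback inhibitor that cytokines induce through STAT3, and it binds JAK kinases. It read 4.65, 3.99, 5.19 and 4.06 in controls and 3.09, 2.85, 2.51 and 2.61 in hypertensive rats, with no overlap. The change was -1.71 ± 0.26, or 3.27-fold lower (limma, adjusted p = 0.0085), and -1.23 ± 0.26 on its second probe (adjusted p = 0.034). The call held in 19 of 20 alternatives and was lost with the plain equal-variance test (adjusted p = 0.054). Beside it, 7 of 8 immediate early genes tested also fell, and that list's summed level was 145.3 to 292.8 in controls and 52.2 to 86.7 in hypertensive rats. Whether Socs3 moved with them for a shared reason was not tested. Of 22 interferon gamma and class I presentation genes, Cd274, which encodes the checkpoint ligand PD-L1, fell, with a change of -0.65 ± 0.15 (adjusted p = 0.049). That call was lost without any 1 array except hypertensive replicate 3.

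**Figure D4:**
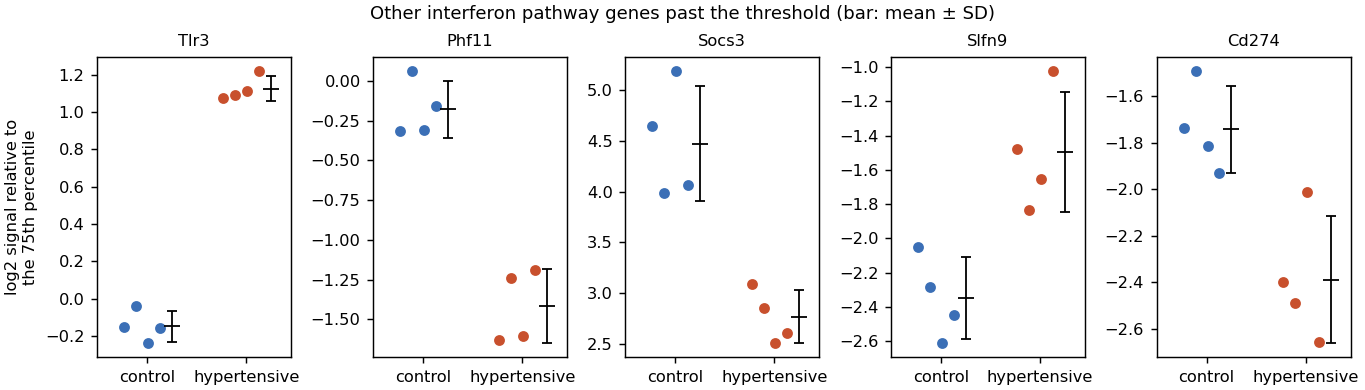
Level on each array (log2 signal relative to the 75th percentile, vertical axis, a scale of its own in each panel) with mean ± SD of 4 arrays, for the 5 interferon pathway genes outside the 31 members that passed an adjusted p of 0.05. Tlr3 and Slfn9 are higher in every hypertensive array than in any control array, and Phf11, Socs3 and Cd274 are lower.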

How the data were processed

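The members and all gene lists were chosen with earlier results of these data known. Per the labels, total RNA was labelled with Cy3 and hybridised to an Agilent rat array. The scanner files deposited by the authors hold spot intensity values, background-subtracted by Agilent Feature Extraction (10.7.1.1 per the file headers, 12.1.1.1 per the submitters' processing notes). The deposited value table holds a linear ratio, which set against the scanner values equals the intensity over each array's 75th percentile (0 probes above 1 off by over 5%, column medians 0.086 to 0.101), with no centring on genes, and served as an alternative.

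Among 58717 gene spots, those marked as outliers (213 to 396 on an array) were dropped if their probe had others. Spots were averaged to 45598 probes on the log2 scale and the array's 75th percentile was subtracted. Probes were kept (27822) where at least 3 of 4 arrays of a group were well above background. RefSeq accessions of assembly GRCr8, without version, named 21229 probes. A gene was read by its brightest kept probe and unnamed probes stood alone, which gave 24552 tests. Groups were compared with limma 3.58.1 in R 4.3.3 (lmFit and eBayes, group only), and the fit was tested on simulated data. The ± after a change is the limma standard error.

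All members are accounted for, in full where past the threshold, where the groups did not overlap or where the unadjusted p was under 0.05. Other members are also given by array where their spread or family bears on the text. Of the pathway lists, genes past the threshold or else those of smallest p are named. Oas1k and Oas1i are named besides, chosen after their values were seen. The samples were treated as unpaired. Deviations of same-numbered arrays correlated at 0.21, 0.12, -0.0035 and -0.15, and 4 of 8 arrays correlated best with their own number. These values cannot settle whether the replicate numbers pair the samples, and the replicate block served as an alternative. 1 pathway gene is not reported here by name.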

Additional observations from a re-analysis of the deposited data

Results flagged for a closer look

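In 5 of 68 groups of 4 arrays examined, 1 array lay far from the other 3 relative to the group's range, a flag that chance gives in about 1 of 20 groups. In 4 of the 5 this was control replicate 2, at 4.71 for Ifi27 (other controls 4.50 to 4.51), 0.67 for Usp18 (0.04 to 0.13), 3.24 for Rtp4 (2.80 to 2.87) and 3.65 for Parp14 (3.27 to 3.30). The fifth was hypertensive replicate 4 for Ifi27, at 4.05 against 4.25 to 4.29 on the other hypertensive arrays.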

How the results depend on the processing

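With 4 arrays per group, a change within the spread between samples cannot be told from none, and for Ifit1 the signal over background limits the value. Of 1111 tests past the threshold in all, 57.7% were higher in hypertensive rats, and this share was 47.4% with quantile normalization (529 higher, 586 lower) and 39.3% with median centring (422 and 652). The count of all tests was 1857 with normexp, 641 with no detection filter, 593 with a plain equal-variance test, 675 with the replicate block and 629 to 1473 with 1 array left out. The count of members was 5 with normexp, 3 with an intensity trend, 2 with quantile normalization, median centring or array weights, 1 with the replicate block and 1 to 2 with 1 array left out. Eif2ak2 was among them each time. The count of pathway genes was 10 with normexp or an intensity trend, 8 with array weights, 3 with no detection filter, 4 with the replicate block and 3 to 6 with 1 array left out, and their median change was -0.11 with median centring. The causes were not tested. No named gene past the threshold changed direction under any alternative run. The replicate block also ended the calls of Slfn9 (adjusted p = 0.084), Cd274 (0.095), Clec9a (0.052) and Mrc1 (0.061). Of the 8 arrays, 4 correlated best with their own replicate number. The planned block for slide or scan was not run, as there was 1 of each, and normexp was run on the median spot signal.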
